A study of Mus musculus with 12 samples.

Results

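Striatal gene expression was compared between 3 TIF-IAD1RCre mutant mice at 13 weeks of age and 3 mutant mice at 9 weeks. The 6 mutant arrays were chosen by the genotype and age in the sample titles, out of 12 arrays in all. The other 6 arrays came from control mice, 3 at each age, and gave the change with age without the mutation. All mice were C57Bl/6, and each array held striatal total RNA of 1 mouse, labelled as biological replicate 1, 2 or 3 of its group. Mice of different ages were therefore different animals, and the comparison is between groups, not within a mouse. In the mutants the gene for TIF-IA (Rrn3) was targeted with a D1R-Cre transgene, which acts in cells that express the D1 dopamine receptor, so that other neurons and the glia of the tissue are not its target. The alleles carried by the controls are not stated. The series text speaks of 3 mice per time point and also of 5 arrays per condition, and 3 per group were analysed here, a number that limits the precision.

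TIF-IA links RNA polymerase I to the ribosomal RNA genes, and without it the synthesis of ribosomal RNA stops, the nucleolus breaks down and p53 is stabilised. The striatum is made up mostly of medium spiny neurons, which use GABA and receive dopamine. Those of the direct pathway carry the D1 receptor with substance P and dynorphin, and those of the indirect pathway carry the D2 receptor with enkephalin. In damaged striatum, astrocytes raise intermediate filaments and secreted proteins, and microglia raise phagocytic, antigen-presenting and complement genes. Interferons act through STAT and IRF factors on a shared set of antiviral genes.

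The labels name medium spiny neurons as the cell type, and on all 12 arrays genes of these neurons lay beside genes of other cells of the tissue. The mean log2 level of 20 medium spiny neuron genes was 11.29 to 11.34 in controls and 10.49 to 10.72 in mutants at 9 weeks, while the myelin gene Mbp lay between 14.48 and 14.79 in the 6 mutants. In such tissue RNA, fewer cells of a type and less RNA per cell cannot be told apart. Sex is not in the labels. Xist and Eif2s3y marked all 3 mutants at 13 weeks as female, but only replicate 1 of the mutants at 9 weeks and 1 mouse in each control group. Control replicate 3 at 13 weeks stood apart, with a mean absolute deviation of 0.62 log2 from the other arrays of its group, against 0.18 to 0.39 for the other 11 arrays. Mutant replicate 3 at 9 weeks and control replicate 1 at 13 weeks stood out in genes of neighbouring regions. Slc17a6, the glutamate transporter of thalamic neurons, was at 3.20, 2.69 and 7.99 in the 9-week mutants and 7.08, 4.44 and 3.87 in the 13-week controls. Calb2, which encodes calretinin, was at 2.65, 3.11 and 7.74 and 8.0, 5.01 and 3.0 in the same mice. Without that mutant array 2488 genes passed between the mutant ages, and without that control array 1672 genes differed in age difference between genotypes and 0 passed between the control ages. The part of sex, and of tissue from neighbouring regions, in the results was not tested beyond the values given beside them.

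Rrn3, the targeted gene, was at 8.0, 7.97 and 8.20 in controls at 9 weeks and at 7.96, 7.54 and 8.04 in controls at 13 weeks, as log2 GCRMA expression. In mutants it was at 6.90, 6.96 and 6.91 at 9 weeks and 7.72, 7.58 and 7.18 at 13 weeks. Every mutant lay below every control at 9 weeks, and at 13 weeks the mutants had moved up until their range overlapped that of the controls. The difference between mutant ages was 0.57 ± 0.18 (SE, adjusted p = 0.0291), n = 3 mice per group, by limma over all genes with Benjamini-Hochberg adjustment, as for every adjusted p below. With a term for sex it was 0.47 with an adjusted p of 0.113, after median centring 0.42 with 0.0759, and it passed in 7 of 12 fits that each left out 1 array. Its age difference in mutants minus that in controls was 0.78 ± 0.25 (SE, adjusted p = 0.0525). The place of the probe set relative to the deleted part of the gene is not known, so the values check the genotype labels only in part.

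Between 9 and 13 weeks 2700 of 8256 genes tested differed in the mutants at an adjusted p under 0.05, which is 32.7% of all genes tested. Of these, 1331 rose (16.1%) and 1369 fell (16.6%). These shares are the background for the counts of each gene list below. In controls the same interval gave 12 genes (0.145%), 7 of them higher (0.0848%) and 5 lower (0.0606%). Of the called genes 383 were at least 2 log2 higher and 69 at least 2 log2 lower, and 79 were at least 4 log2 higher against 1, Cd4, at least 4 log2 lower. The median difference over all genes tested was -0.10 in mutants and -0.08 in controls. When each array was centred on its median, the median over all genes in the mutants became -0.26 and the split 1137 higher against 2108 lower. The age difference itself differed between genotypes for 1523 genes (18.4%), with 996 higher and 527 lower in the mutants, and 877 higher and 766 lower after median centring. Without control replicate 3 at 13 weeks the mutant count was 3837 genes. With a term for sex it was 2512, and among the female mice alone, with 1 mutant left at 9 weeks, it was 1923. Of 179 genes followed through every setting 147 passed, and 125 of these passed in each of the 12 fits that left out 1 array. Most were chosen by their difference or p-value in these data, so their stability does not describe all genes called.

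Many rises began at the low end of the scale. For 180 of the genes that rose, no 9-week mutant lay above the 40th percentile of its array, 3.51 to 3.81 log2, which was the level a gene had to exceed on 3 arrays to be tested. Of the 8256 genes, 233 reached the test only through the 13-week mutants and so could hardly fail to differ. A difference from that end of the scale, as a fold or in log2, depends on the background correction, so the sizes printed for such genes, and their order, hold for these deposited values only. At the other end, 42 genes that fell had no 13-week mutant above the percentile.

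**Figure D1:**
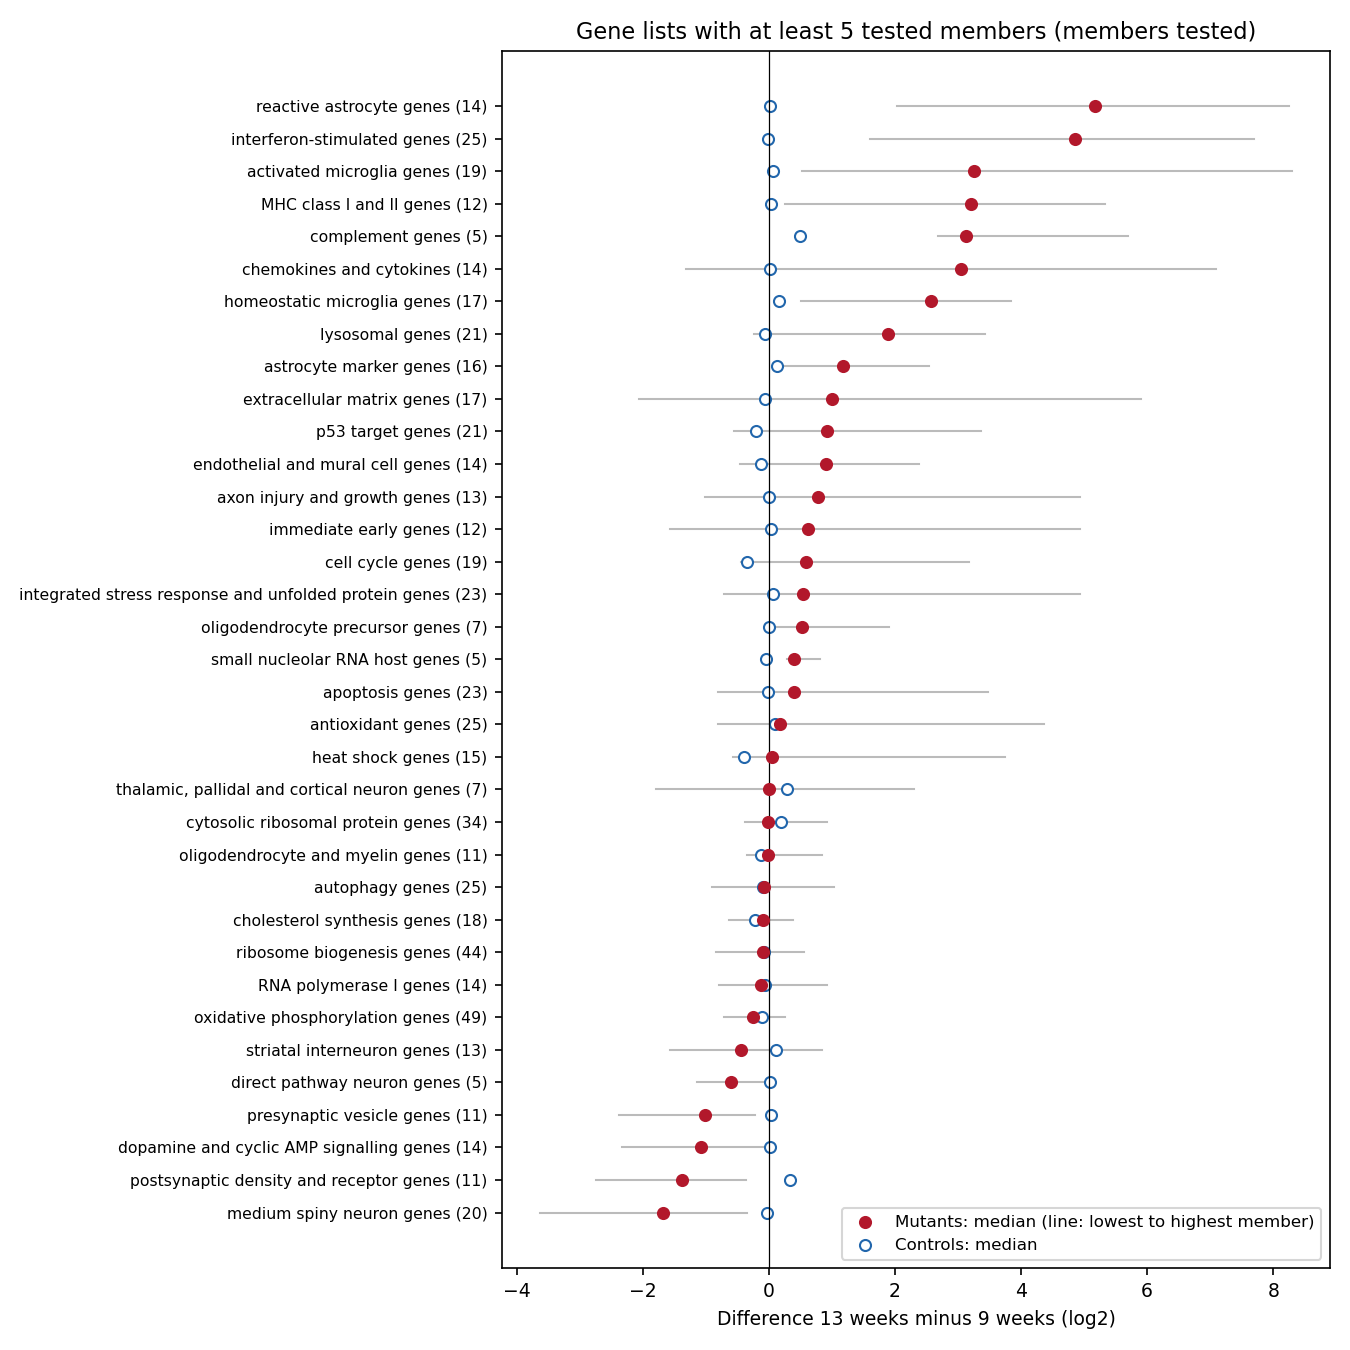
Median difference between 13 and 9 weeks (log2, x axis) of the tested members of each gene list (rows, with the number tested), filled red for mutants with a grey line from the lowest to the highest member, open blue for controls. The reactive astrocyte list has a mutant median of 5.17 and the medium spiny neuron list one of -1.69, while the control medians of these lists are 0.02 and -0.03. Of the 14 reactive astrocyte members 7 were tested only through the 13-week mutants, so the median of that list is no support by itself.

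Genes of medium spiny neurons fell almost throughout. Of 20 tested members, 19 fell and none rose, and in all 20 every 13-week mutant lay below every 9-week mutant, as in 31.8% of all genes tested. The list had a median difference of -1.69 against -0.03 in controls and -0.10 over all genes in the mutants. For 15 members the age difference differed between genotypes. The exception was the cannabinoid receptor gene Cnr1, which already lay below the percentile in all mutants, at 2.72, 2.67 and 2.92 at 9 weeks and 2.44, 2.45 and 2.39 at 13 weeks. Its controls lay at 3.82, 4.61 and 5.07 at 9 weeks.

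Pde10a, the phosphodiesterase that degrades cyclic nucleotides in these neurons, was at 10.39, 10.20 and 9.88 at 9 weeks and 7.07, 7.36 and 8.21 at 13 weeks, a difference of -2.61 ± 0.26 (SE, adjusted p = 1.26e-05), n = 3 mice per group. The 13-week mutants all lay below the 9-week mutants, which lay close to the controls of that age at 10.36, 10.64 and 10.36. Other Pde10a probe sets differed by -2.38 and -1.05. Ppp1r1b, encoding DARPP-32, the dopamine-regulated phosphatase inhibitor, was at 13.19, 13.37 and 12.88 at 9 weeks and 10.54, 10.89 and 11.84 at 13 weeks, a 4.16-fold fall (-2.06 ± 0.34 log2, SE, adjusted p = 0.000646). In controls it stayed at 13.39, 13.32 and 13.34 at 9 weeks and 13.14, 13.07 and 14.15 at 13 weeks. The transcription factor genes of the lineage were lower too, Bcl11b by -1.96 log2, Foxp1 by -1.45, Rarb by -1.67, Meis2 by -1.26 and the retinoid receptor gene Rxrg by -1.84. So were Rasd2, a small G protein of striatum (-2.21), the striatal phosphatase gene Ptpn5 (-1.63), the potassium channel subunit gene Kcnip2 (-1.68), the actin cross-linker gene Actn2 (-2.29) and the calcium release channel gene Ryr3 (-2.15). Rasgrp2, which activates the small G protein Rap1, changed most in the list, from 9.26, 9.16 and 9.24 to 4.37, 5.42 and 6.98, and the -3.63 ± 0.47 (SE, adjusted p = 0.000105) of this probe set compares with -1.95 and -2.41 by 2 others of the gene.

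Markers of both output pathways were lower at 13 weeks. Drd2, the D2 dopamine receptor gene of the indirect pathway, was at 9.86, 10.08 and 9.69 at 9 weeks and 6.64, 6.66 and 8.22 at 13 weeks, a 6.51-fold fall (-2.70 ± 0.45 log2, SE, adjusted p = 0.000692). Replicate 3 at 13 weeks kept the highest level of its group and still lay below all 9-week mutants. Penk, which encodes enkephalin, fell from 13.53, 13.56 and 13.28 to 11.68, 12 and 12.71 (-1.33 ± 0.22 log2, SE, adjusted p = 0.000721). For the direct pathway, Tac1, the precursor of substance P, was at 12.66, 12.65 and 12.25 at 9 weeks and 11.31, 11.44 and 11.64 at 13 weeks, a 2.08-fold fall (-1.06 ± 0.20 log2, SE, adjusted p = 0.00147). Isl1, a transcription factor of direct pathway neurons, fell by 1.14 log2, and Sfxn1, a mitochondrial serine carrier, by 0.59, though Sfxn1 did not pass with a term for sex. Pdyn, the dynorphin precursor, did not pass, at 7.81, 7.52 and 6.65 at 9 weeks and 7.13, 7.33 and 6.65 at 13 weeks, and neither did Ebf1, at a difference of 0.08. In all, 3 of 5 tested direct pathway genes and 2 of 3 indirect pathway genes fell, and whether the pathways differed from each other was not tested.

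Of 13 tested interneuron genes 2 fell, against 16.6% of all genes tested: Lhx6 (-0.63), a transcription factor of interneurons, and the nitric oxide synthase gene Nos1 (-0.66), which passed in 7 and 5 of 12 fits that left out 1 array, and neither passed without mutant replicate 3 at 9 weeks. Sst, encoding somatostatin, was at 11.63, 12.08 and 11.71 at 9 weeks and 11.38, 11.41 and 11.55 at 13 weeks and did not pass, nor did Npy, which encodes neuropeptide Y, at a difference of -0.01. Pvalb, marking fast-spiking cells, ranged from 6.56 to 8.73 at 13 weeks, and its difference of -1.17 had an adjusted p of 0.239. Among 7 tested genes of thalamic, pallidal and cortical neurons, Rorb (2.30) and the kinase gene Prkcd (1.75) rose. Rorb was tested only through the 13-week mutants. Slc17a6 was at 2.67, 2.83 and 3.0 in the 13-week mutants, below the percentile.

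Synaptic genes were lower as well. On the presynaptic side 6 of 11 tested genes fell, with a median of -1.01: the vesicle phosphoproteins Syn1 (-1.21) and Syn2 (-1.16), the fusion protein gene Stx1a (-1.57), the vesicle GTPase gene Rab3a (-1.38), and the complexins Cplx1 (-1.01) and Cplx2 (-2.38). Syp (-0.25) and Snap25 (-0.21), which encode a vesicle membrane protein and a fusion protein, did not pass. In the fit to female mice alone, which left 1 mutant at 9 weeks, 1 presynaptic gene passed. On the postsynaptic side 8 of 11 fell (median -1.37), and 7 differed in age difference between genotypes. Gabrd, the delta subunit of extrasynaptic GABA receptors, was at 9.64, 9.63 and 9.56 at 9 weeks and 6.38, 6.71 and 7.52 at 13 weeks, a 6.68-fold fall (-2.74 ± 0.26 log2, SE, adjusted p = 8.3e-06). Camk2a, a calcium-dependent kinase of the postsynaptic density, fell from 5.09, 4.91 and 5.08 to 2.65, 3.28 and 3.31, where all 3 mice lay below the percentile. The AMPA receptor genes Gria1 (-1.22) and Gria2 (-1.17) and the scaffold genes Dlg4 (-1.70) and Shank3 (-1.37) fell as well.

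Downstream of dopamine receptors, 9 of 14 tested genes fell and none rose. Gnb5, the G protein beta subunit that pairs with RGS9, was at 10.92, 11.01 and 10.78 at 9 weeks and 9.08, 9.25 and 9.90 at 13 weeks (-1.49 ± 0.21 log2, SE, adjusted p = 0.000231). Rgs4, a GTPase activator that ends G protein signals, fell by 1.44 log2, the phosphodiesterase gene Pde7b by 2.33 and the calcineurin subunit gene Ppp3ca by 1.18. The kinase A subunits Prkaca (-0.27) and Prkacb (-0.08) did not pass. Falls outside the lists included Adra2c, the alpha-2C adrenergic receptor gene, at 6.21, 6.39 and 6.36 at 9 weeks and 2.54, 2.63 and 3.57 at 13 weeks (-3.41 ± 0.27 log2, SE, adjusted p = 1.71e-06), and Chrm1, the M1 muscarinic receptor gene, at 6.78, 6.78 and 6.61 at 9 weeks and 3.41, 3.73 and 3.90 at 13 weeks (-3.04 ± 0.30 log2, SE, adjusted p = 1.1e-05). Ido1, an enzyme of tryptophan breakdown, was at 8.98, 9.30 and 9.68 at 9 weeks and 5.50, 5.86 and 7.66 at 13 weeks (-2.98 ± 0.44 log2, SE, adjusted p = 0.000313). The arginase gene Arg2 (-3.09), the germ cell RNA-binding protein gene Dazl (-2.93), the skin protein gene Dmkn (-3.13), the Notch target Hes5 (-2.93) and the ER protein gene Reep6 (-2.87) also fell. Rgs11, another GTPase activator, fell by 2.77 log2, and its difference between genotypes missed the threshold (adjusted p = 0.052).

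**Figure D2:**
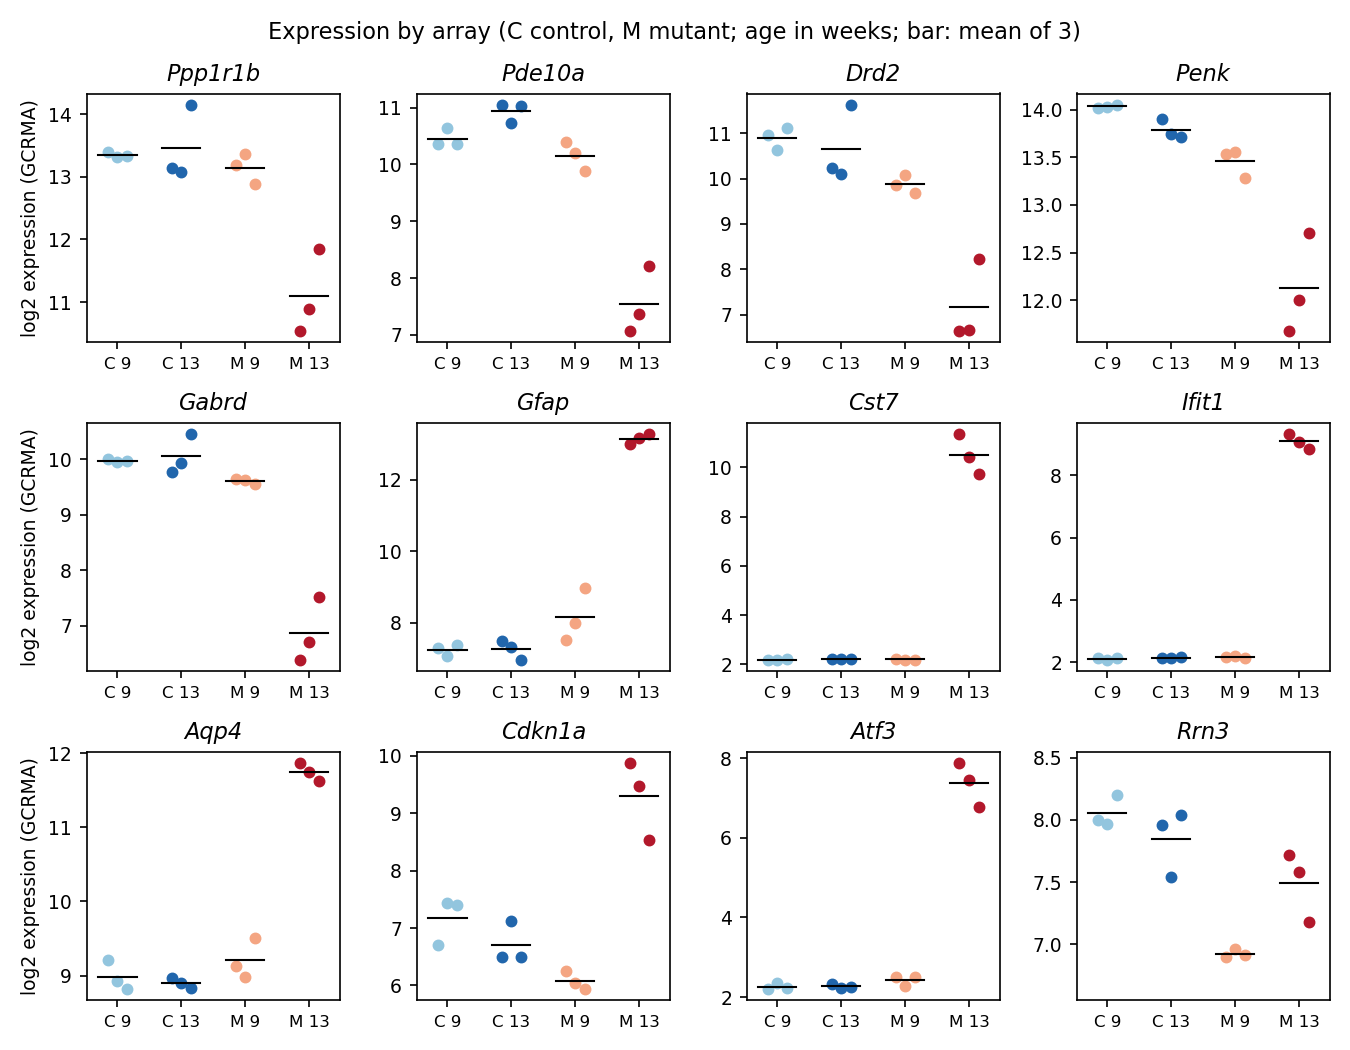
Log2 GCRMA expression (y axis) of 12 genes in each array, for control (C) and mutant (M) mice at 9 and 13 weeks, 3 points per group with a bar at the mean. Neuronal genes such as Pde10a and Drd2 are lowest in the 13-week mutants, Gfap, Cst7, Ifit1 and Atf3 are highest there, and Rrn3 is lowest in the 9-week mutants.

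Astrocyte genes rose. Of 16 tested astrocyte marker genes 11 rose and none fell (median 1.17). In 14 every 13-week mutant lay above every 9-week mutant, as in 22.8% of all genes tested, and each member lay above the percentile in all 9-week mutants. Aqp4, the water channel of astrocyte endfeet, was at 9.13, 8.98 and 9.51 at 9 weeks and 11.87, 11.74 and 11.62 at 13 weeks, a 5.8-fold rise (2.54 ± 0.17 log2, SE, adjusted p = 3.53e-07), with both groups tight and far apart. The glutamate transporter genes Slc1a3 (1.60) and Slc1a2 (1.99) and the folate enzyme gene Aldh1l1 (2.20) also rose. Gja1 (0.68), the main astrocyte gap junction gene, Glul (0.42), glutamine synthetase, and Aldoc (0.18), an aldolase, did not pass.

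Gfap, the intermediate filament that reactive astrocytes raise, was at 7.52, 8.0 and 8.98 at 9 weeks and 13, 13.16 and 13.29 at 13 weeks, a 31.6-fold rise (4.98 ± 0.30 log2, SE, adjusted p = 1.55e-07). Replicate 3 had the highest Gfap of the 9-week mutants, and the 13-week mutants formed a tight group. All 14 tested members of the reactive list rose, of 19 on the array, but 7 of them reached the test only through the 13-week mutants, so the count and the median of 5.17 are no support by themselves. Serpina3n, a secreted protease inhibitor, rose from 4.53, 5.86 and 3.95 to 13.28, 13.22 and 12.59 (8.25 ± 0.49 log2, SE, adjusted p = 1.33e-07). Below the percentile at 9 weeks were Timp1, a metalloproteinase inhibitor (5.90), Cd44, the hyaluronan receptor (6.12), Emp1, a membrane protein (5.35), Lcn2, an iron-carrier binding protein (7.02), and Osmr, the oncostatin M receptor (6.53), and all 13-week mutants lay above it. A second Osmr probe set differed by 3.58. A2m, a protease inhibitor of plasma and brain, rose by 7.94 log2, with 1 of the 9-week mutants above the percentile.

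Microglial genes rose together, both those of resting cells and those of activated ones. Among 17 homeostatic genes 16 rose (median 2.58), and all of them lay above the percentile in the 9-week mutants. Aif1, encoding the calcium-binding protein IBA1, was at 6.72, 7.07 and 8.11 at 9 weeks and 10.17, 10.07 and 9.40 at 13 weeks, a 5.98-fold rise (2.58 ± 0.31 log2, SE, adjusted p = 6.59e-05). Its groups did not overlap, though replicate 3 at 9 weeks was more than 1 log2 above replicates 1 and 2 of that age. Mpeg1, a pore-forming protein of phagocytes (3.73), Ly86, a partner of a Toll-like receptor homolog (3.53), the Fc receptor gene Fcgr3 (2.63) and the cathepsin gene Ctss (2.40) passed with the smallest p-values. Sall1, a transcription factor of microglia, differed by 0.51 and did not pass.

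Of 19 tested genes of activated microglia 18 rose, and 6 of these were tested only through the 13-week mutants. Cst7, which encodes the cathepsin inhibitor cystatin F, was at 2.23, 2.19 and 2.19 at 9 weeks and 11.36, 10.41 and 9.74 at 13 weeks (8.30 ± 0.30 log2, SE, adjusted p = 2.16e-09). It moved from the low end of the scale, where all controls also lay, to a level above the array medians of 5.44 to 5.52. Clec7a, the beta-glucan receptor dectin-1, went from 2.37, 3.57 and 2.36 to 10.72, 10.60 and 10.16. Lgals3, encoding galectin-3, rose by 5.54 log2, Itgax, the integrin CD11c, by 4.96, and the chemokine gene Ccl6, which had been above the percentile, by 5.52. Lpl, a lipase, did not pass (0.52).

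Most markers of cells that enter from the blood stayed low. For T and B lymphocytes, 12 of 15 genes on the array lay at or below the percentile on every array. The mean level of the list was 2.68 to 2.73 in 9-week and 2.48 to 2.62 in 13-week mutants. That mean includes the large fall of Cd4, so it does not describe the other members. The highest value of an untested member on any array was 6.37. The tested member was Cd4, which encodes a coreceptor of T cells, and it fell, from 7.28, 7.47 and 6.83 to 2.51, 2.39 and 3.49 (-4.40 ± 0.32 log2, SE, adjusted p = 7.46e-07), below the percentile in all 13-week mutants, while another Cd4 probe set differed by -3.14. It had been at 8.33, 8.38 and 8.60 in controls at 9 weeks. All 10 monocyte and neutrophil genes on the array lay at or below the percentile on all arrays. For perivascular macrophages 5 of 8 did, and the tested Stab1 was at 4.40, 4.45 and 4.44 at 9 weeks and 4.47, 5.46 and 4.44 at 13 weeks without passing.

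Interferon-stimulated genes rose throughout. All 25 tested members of 26 on the array rose, with a median of 4.86 against -0.01 in controls, and all 25 differed in age difference between genotypes. For 13 of them the test was reached only through the 13-week mutants, so these counts and the median are no support by themselves. The other 12 rose too. Ifit1, Usp18, Rsad2 and Oasl2, described next, were tested only through the 13-week mutants, so their small p-values were largely set by the filter. Ifit1, which binds foreign RNA caps, was at 2.15, 2.19 and 2.12 at 9 weeks and 9.34, 9.09 and 8.86 at 13 weeks (6.94 ± 0.14 log2, SE, adjusted p = 5.64e-11). Usp18, the protease that removes the ubiquitin-like ISG15, was at 2.44, 2.32 and 2.29 at 9 weeks and 9.38, 9.09 and 8.82 at 13 weeks (6.75 ± 0.15 log2, SE, adjusted p = 8.51e-11). In both genes the 9-week mutants were as low as the controls and the 13-week mutants formed a tight group. Gbp3, a guanylate-binding protein gene measured above the percentile at 9 weeks, rose from 4.20, 4.50 and 4.35 to 9.85, 9.68 and 9.22, a 37.6-fold rise (5.23 ± 0.17 log2, SE, adjusted p = 8.32e-10). Rsad2, the antiviral enzyme viperin (5.09), Oasl2, of the oligoadenylate synthetase family (7.70), Bst2, the membrane tether of budding virus (6.57), and Ifi27l2a, an interferon-induced gene (6.95), rose by 5 log2 or more.

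Promoters of this list were searched because its members moved together. Transcription factors activated by type I interferon bind the interferon-stimulated response element, whose core was searched as GAAA, any 2 bases, and GAAA again, on both strands in the 250 bases before the start in RefSeq's GRCm38.p6 promoter windows. It was found in 11 of 21 list genes with a window (52.4%), against 219 of 6732 genes tested (3.25%), 1 of 18 medium spiny neuron genes, 2 of 14 reactive astrocyte genes and 0 of 16 activated microglia genes. The STAT core TTCCNGGAA was found in 2 of the 21 and in 74 of the 6732 (1.10%). Below are the last 150 bases before the start of the 5 list genes with the largest rise among those with a match in that stretch, 5′ to 3′ on the gene's strand, the response element core in capitals. Positions count back from the start. Ifit1 lies on chromosome 19 (chr19:34640739-34640888, plus strand, matches at -104 and -85), Bst2 on chromosome 8 (chr8:71537473-71537622, minus strand, -130 and -124), Oas1a on chromosome 5 (chr5:120907526-120907675, minus strand, -20 and -14), Gbp2 on chromosome 3 (chr3:142620513-142620662, plus strand, -59) and Irgm1 on chromosome 11 (chr11:48871421-48871570, minus strand, -30 and -24).
Ifit1: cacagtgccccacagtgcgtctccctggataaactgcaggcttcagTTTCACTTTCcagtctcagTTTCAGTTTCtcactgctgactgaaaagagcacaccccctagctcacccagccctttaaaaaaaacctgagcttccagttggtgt
Bst2: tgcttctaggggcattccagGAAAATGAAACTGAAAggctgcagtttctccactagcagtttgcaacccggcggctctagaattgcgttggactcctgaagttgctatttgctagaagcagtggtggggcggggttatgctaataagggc
Oas1a: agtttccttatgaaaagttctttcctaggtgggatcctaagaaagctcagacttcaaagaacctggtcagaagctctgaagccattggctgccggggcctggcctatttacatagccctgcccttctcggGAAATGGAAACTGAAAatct
Gbp2: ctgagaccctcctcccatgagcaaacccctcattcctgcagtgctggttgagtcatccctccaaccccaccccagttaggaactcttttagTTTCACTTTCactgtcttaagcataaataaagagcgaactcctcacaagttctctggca
Irgm1: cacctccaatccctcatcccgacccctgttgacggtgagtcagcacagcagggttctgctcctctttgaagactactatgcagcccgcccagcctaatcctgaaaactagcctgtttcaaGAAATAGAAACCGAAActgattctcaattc

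The matches overlap in Bst2, Oas1a and Irgm1, where GAAA stands 3 times at the spacing of the core, and in Ifit1 they are separate. A match is a string of letters, not a measured site. In the mutants Ifit1 rose by 6.94 log2, Bst2 by 6.57, Oas1a by 5.89, Gbp2 by 5.89 and Irgm1 by 5.44.

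Antigen presentation, complement and chemokine genes rose with them. Of 12 tested MHC genes 11 rose (median 3.20), 6 of them tested only through the 13-week mutants. B2m, the light chain of class I molecules, was at 10.60, 10.65 and 10.52 at 9 weeks and 13.97, 14.02 and 13.48 at 13 weeks, a 9.4-fold rise (3.23 ± 0.17 log2, SE, adjusted p = 5.35e-08), and the class I heavy chain genes H2-K1 (3.38) and H2-D1 (3.55) and the peptide transporter gene Tap1 (3.76) rose with it. Class II genes rose from the low end, H2-Aa by 5.11 log2 and the invariant chain gene Cd74 by 5.34, while H2-DMa did not pass (0.26). A second H2-Aa probe set, too low for the filter, differed by 1.28. The class I and class II genes share close relatives, so their probe sets may be read by more than 1 gene.

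All 5 tested complement genes rose, of 10 on the array, and 1 of them, C3ar1, was tested only through the 13-week mutants. C1qb, a chain of the first component, was at 10.03, 10.08 and 10.38 at 9 weeks and 13.05, 13.08 and 12.43 at 13 weeks (2.69 ± 0.21 log2, SE, adjusted p = 1.28e-06), and the other chains C1qa (2.92) and C1qc (3.16) rose as well. Serping1, the inhibitor of that component, rose by 5.69 log2 and the C3a receptor gene C3ar1 by 3.13. Among chemokines and cytokines 11 of 14 rose, 5 of them tested only through the 13-week mutants. Cxcl10, which attracts T cells, was at 3.50, 4.17 and 3.99 at 9 weeks and 11.42, 11.38 and 10.12 at 13 weeks (7.09 ± 0.30 log2, SE, adjusted p = 8.64e-09), and replicate 3 at 13 weeks was the lowest of its group. Ccl12 (6.28) and Ccl3 (5.24), which attract monocytes, and the microglial growth factor gene Csf1 (3.09) rose as well. Cx3cl1, the neuronal ligand of a microglial receptor, fell by 1.32 log2 and was the single member lower.

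Lysosomal genes rose, 17 of 21 tested, all measured in the 9-week mutants, with a median of 1.88. The cathepsin gene Ctsd was at 9.65, 9.99 and 10.18 at 9 weeks and 12.92, 12.76 and 12.37 at 13 weeks, a 6.7-fold rise (2.74 ± 0.19 log2, SE, adjusted p = 6.18e-07), and Ctsc (3.44) and Ctsz (2.41) rose too. Tfeb, a master regulator of lysosomal genes (-0.09), Psap (0.13), Npc1 (0.70) and Mcoln1 (-0.24) did not pass. Of the autophagy genes 2 of 25 rose and 3 fell, against 16.1% and 16.6% of all genes tested. Their median of -0.07 was close to that of all genes. Map1lc3b, encoding LC3B, rose by 0.47 log2, though not after median centring, and Wipi1, which binds phosphoinositides on forming autophagosomes, by 1.03, though another Wipi1 probe set gave -0.20. Other Map1lc3b probe sets that passed the filter differed by only 0.20 and 0.09. Atg16l1 (-0.90), a conjugation scaffold, Pik3c3 (-0.69), the lipid kinase, and Gabarapl1 (-0.42), of the LC3 family, fell. Sqstm1, the cargo receptor p62, was at 11.31, 11.45 and 11.46 at 9 weeks and 11.43, 11.31 and 11.26 at 13 weeks and did not pass.

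Genes that p53 activates rose in part, 12 of 21 tested and none lower, with a median of 0.92. Of the 12, Pmaip1 was tested only through the 13-week mutants. Over all genes tested 16.1% rose and 16.6% fell. Cdkn1a, encoding the cell cycle inhibitor p21, was at 6.26, 6.05 and 5.94 at 9 weeks and 9.88, 9.48 and 8.54 at 13 weeks, a 9.3-fold rise (3.22 ± 0.32 log2, SE, adjusted p = 1.41e-05). At 9 weeks it lay below the controls, at 6.70, 7.43 and 7.40, and at 13 weeks above them, at 6.49, 7.13 and 6.50 in controls. Pmaip1, the death factor NOXA, rose from 2.95, 2.79 and 2.88 to 7.04, 6.57 and 5.09, and Fas, a death receptor, from 3.89, 3.69 and 4.0 to 7.32, 7.24 and 5.73. Replicate 3 was the lowest of the 13-week mutants in all 3 of these genes. Gadd45b, a stress sensor, rose by 1.52 log2 and Mdm2, the ubiquitin ligase that restrains p53, by 0.74. The targets Bbc3 (0.48), Zmat3 (0.01) and Sesn1 (-0.11) did not pass.

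Of 23 tested apoptosis genes 7 rose and 1 fell, against 16.1% and 16.6% of all genes tested. Of the risen ones, 4 were tested only through the 13-week mutants, namely Casp8, Casp12, Casp1 and Birc5, so their rises were largely set by the filter. Of the 19 other members 3 rose and 1 fell, close to the shares of all genes for the rises. Casp8, the initiator caspase of death receptors, was at 2.37, 2.31 and 2.49 at 9 weeks and 6.14, 5.71 and 5.76 at 13 weeks (3.48 ± 0.20 log2, SE, adjusted p = 9.39e-08). Casp12 (1.80), an inflammatory-group caspase, Casp1 (2.28), which processes interleukin-1, and Birc5 (2.07), encoding survivin, rose, and Bok, a BCL2 family member, fell by 0.81 log2. Among 19 tested cell cycle genes 7 rose, against 16.1% of all genes tested. The cyclin genes Ccnd1 (3.18) and Ccnd3 (1.73) rose. The mitotic kinase gene Cdk1 was at 3.91, 4.05 and 6.29 at 9 weeks and 7.29, 6.97 and 6.93 at 13 weeks (2.31 ± 0.52 log2, SE, adjusted p = 0.00519), and replicate 3 at 9 weeks was close to the 13-week level. The proliferation marker Mki67 (0.92) and the replication clamp gene Pcna (0.59) did not pass.

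Stress genes of several kinds rose in single members. Atf3, a stress-induced transcription factor, was at 2.52, 2.29 and 2.51 at 9 weeks and 7.88, 7.45 and 6.78 at 13 weeks (4.93 ± 0.23 log2, SE, adjusted p = 1.41e-08), and Jun, its partner, at 7.20, 7.27 and 7.40 at 9 weeks and 9.90, 9.46 and 9.23 at 13 weeks (2.24 ± 0.21 log2, SE, adjusted p = 9.12e-06). Btg2 (2.07) and Dusp1 (1.25) rose as well, so that 4 of 12 tested immediate early genes rose, against 16.1% of all genes tested. Of the 4, Atf3 was tested only through the 13-week mutants. The mutant groups overlapped for Dusp1, at 9.0, 7.93 and 7.55 at 9 weeks and 9.78, 9.60 and 8.86 at 13 weeks, and it passed in 8 of 12 fits that left out 1 array and neither with a term for sex, with no filter nor among female mice. Fos (2.09) and Egr1 (-0.86) did not, and 9-week replicate 1, the female mouse of that group, stood 1.06 log2 above the group mean over this list. Among the female mice alone 3 members were higher and 5 lower at 13 weeks. In the axon injury list 6 of 13 rose, Stmn4 of the tubulin-binding stathmins by 1.33 log2 and Gadd45a by 2.57, and the neurofilament genes Nefl (-0.98), Nefm (-0.81) and Nefh (-1.01) fell. Atf3 was among the rises, and over all genes tested 16.1% rose and 16.6% fell.

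In the integrated stress response and unfolded protein list 9 of 23 rose, against 16.1% of all genes tested. Of the 9, Atf3 was tested only through the 13-week mutants. Eif4ebp1, the cap-binding repressor gene, was at 4.68, 4.67 and 4.53 at 9 weeks and 5.93, 5.83 and 5.74 at 13 weeks (1.21 ± 0.16 log2, SE, adjusted p = 0.000113), and the amino acid transporter subunit gene Slc3a2 rose by 1.20 log2. Asns, asparagine synthetase, fell by 0.71, and Ddit3, encoding CHOP, was at 10.20, 10.27 and 10.48 at 9 weeks and 10.29, 10.21 and 10.02 at 13 weeks without passing. Both ages of mutants lay above the controls in Ddit3, at 9.04, 9.06 and 9.09 for 9 weeks. Of 15 heat shock genes 6 rose, against 16.1% of all genes tested. Among them were Hspb1 (3.75), Cryab (0.95) and Hspb8 (2.15), small heat shock protein genes, and Hspa1a (1.96). Hspa1a was tested only through the 13-week mutants. A second Hspb8 probe set differed by only 0.11. Antioxidant genes counted 7 higher and 1 lower of 25, against 16.1% and 16.6% of all genes tested. Of the 7, Hmox1 was tested only through the 13-week mutants. Hmox1, heme oxygenase 1, was at 3.15, 2.93 and 3.46 at 9 weeks and 8.07, 7.94 and 6.63 at 13 weeks (4.37 ± 0.31 log2, SE, adjusted p = 6.94e-07). Sod3, the extracellular superoxide dismutase, rose by 2.35 log2, and the metallothioneins Mt1 (1.14) and Mt2 (1.74) rose in tight groups. Gstm5, a glutathione transferase, fell by 0.81 log2.

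Ribosome production is the process TIF-IA serves. Of 44 tested ribosome biogenesis genes 1 rose and 6 fell, against 16.1% and 16.6% of all genes, and their median of -0.09 was close to that of all genes; after median centring 1 rose and 14 fell. Nhp2, of the pseudouridylation complex, was at 10.93, 11.02 and 10.82 at 9 weeks and 10.01, 10.13 and 10.11 at 13 weeks (-0.84 ± 0.18 log2, SE, adjusted p = 0.00357), and the processing factor genes Rrp1 (-0.76), Bysl (-0.63), Rrp9 (-0.82), Wdr12 (-0.46) and Nop56 (-0.54) were lower. Fbl, the nucleolar methyltransferase fibrillarin, rose by 0.56 log2. In the RNA polymerase I list 2 of 14 rose, Rrn3 and the promoter factor subunit gene Taf1a (0.92), and 2 fell, the polymerase subunit genes Polr1b (-0.55) and Polr1e (-0.62), shares close to the 16.1% and 16.6% of all genes. Both falls passed in 6 of 12 fits that left out 1 array. Of 34 ribosomal protein genes Rps6 (0.92) and Rplp0 (0.50) rose, and neither passed after median centring or in over 5 of the 12 fits that left out 1 array.

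Snhg1, a host gene of small nucleolar RNAs, was at 11, 11.27 and 10.55 at 9 weeks and 11.48, 11.37 and 10.83 at 13 weeks in mutants, against 7.72, 7.43 and 7.37 in controls at 9 weeks and 7.45, 7.83 and 7.10 at 13 weeks. Its level was far above the controls at both ages, and the difference between ages did not pass (0.29, adjusted p = 0.413). Snhg5, another host, went from 8.94, 8.97 and 8.70 to 9.73, 9.91 and 9.41 (0.81 ± 0.17 log2, SE, adjusted p = 0.00362). Gpx6, a glutathione peroxidase gene, was at 2.09, 1.94 and 2.02 at 9 weeks and 1.92, 1.93 and 1.99 at 13 weeks, below the percentile in all 6 mutants, with controls at 5.17, 5.66 and 6.14 at 9 weeks. Cartpt, a neuropeptide gene, was at 7.54, 7.81 and 8.14 at 9 weeks and 6.89, 7.84 and 6.73 at 13 weeks in mutants and at 5.78, 5.92 and 6.11 at 9 weeks and 6.73, 6.73 and 6.57 at 13 weeks in controls. Its difference between mutant ages did not pass (-0.68, adjusted p = 0.0679), and the difference from the control age difference did (-1.42 ± 0.37 log2, SE, adjusted p = 0.0198).

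Of 49 tested genes of oxidative phosphorylation 5 fell, a smaller share than the 16.6% of all genes, and all 5 encode complex I subunits: Ndufb10 (-0.71), Ndufs1 (-0.55), Ndufb9 (-0.49), Ndufs7 (-0.44) and Ndufb5 (-0.43). Ndufb10 was at 13, 13.02 and 12.98 at 9 weeks and 12.23, 12.37 and 12.26 at 13 weeks (-0.71 ± 0.13 log2, SE, adjusted p = 0.00118). The list's median was -0.25 against -0.10 over all genes, and the count depended on the setting: 20 fell after median centring, 15 without control replicate 3 at 13 weeks, 10 without mutant replicate 3 at 13 weeks and 2 with a term for sex. Of 18 cholesterol synthesis genes, Fdps, which makes farnesyl diphosphate, fell by 0.60 log2, and it passed in 4 of 12 fits that left out 1 array.

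Of 11 tested oligodendrocyte and myelin genes, Cldn11, the myelin tight junction gene, rose by 0.84 log2, and the other 10 did not pass. Cldn11 did not pass with a term for sex, among female mice alone, or without mutant replicate 2 at 13 weeks (0.74, adjusted p = 0.0532 by limma). Mbp, myelin basic protein, was at 14.65, 14.64 and 14.79 at 9 weeks and 14.48, 14.63 and 14.73 at 13 weeks. Other Mbp probe sets differed by -0.92, -0.87, -0.22, -0.16, -0.06, -0.04 and 0.03. With probe sets averaged per gene, Mbp passed as lower. Precursor cell genes rose in 4 of 7 cases, against 16.1% of all genes tested. These were Vcan (1.91), Pdgfra (1.16), Cspg4 (1.03) and Olig2 (0.52), and 2 of them passed after median centring. A second Cspg4 probe set differed by only 0.07. Pdgfra passed in 3 and Olig2 in 8 of 12 fits that left out 1 array. Endothelial and mural genes rose in 8 of 14 cases, against 16.1% of all genes tested. Vwf, the platelet-binding protein of vessel walls, was at 3.54, 3.32 and 3.17 at 9 weeks and 5.89, 6.06 and 5.23 at 13 weeks (2.38 ± 0.28 log2, SE, adjusted p = 5.62e-05). It was tested only through the 13-week mutants. The pericyte receptor gene Pdgfrb (1.47) and the drug efflux pump gene Abcb1a (1.43) rose too. Cldn5, the tight junction gene of brain endothelium, differed by 0.45 and did not pass. The count of this list was 5 with a term for sex and 2 among female mice alone.

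Matrix genes rose in 8 of 17 cases and fell in 2, against 16.1% and 16.6% of all genes tested. Of the rises, 5 were tested only through the 13-week mutants, and of the 12 other members 3 rose and 2 fell. Sparc, a secreted collagen-binding protein, was at 11.14, 11.07 and 11.99 at 9 weeks and 13.48, 13.40 and 13.18 at 13 weeks (1.95 ± 0.24 log2, SE, adjusted p = 6.9e-05), and Mmp2, a gelatinase, rose by 2.08 log2 from the low end. Col6a1 (-2.06) and Lamb1 (-1.02), a collagen and a laminin chain, fell. Of choroid plexus and ependymal genes, Ttr, the thyroxine carrier of choroid plexus, was at 2.56, 2.49 and 3.03 at 9 weeks and 5.26, 3.35 and 7.32 at 13 weeks, with a wide spread among the 13-week mice. It passed with all arrays (2.62 ± 0.77 log2, SE, adjusted p = 0.021) and in 8 of 12 fits that left out 1 array. Ttr was tested only through the 13-week mutants. Without replicate 3 of the 13-week mutants the difference was 1.61 (adjusted p = 0.0578 by limma), and without replicate 1 it was 2.64 (adjusted p = 0.0579). Without replicate 1 or 2 of the 9-week mutants it was 2.55 (adjusted p = 0.0578) or 2.52 (adjusted p = 0.0642), and with no filter on low levels the adjusted p was 0.0573. Foxj1, the ciliary transcription factor of ependyma, rose by 0.97 log2 and did not pass with a term for sex.

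The 3 mutants at 13 weeks did not move equally far. For each called gene, the distance of each 13-week mouse from the 9-week mutant mean was taken as a description, since these arrays entered the call. Replicate 3 was the nearest in 979 of 1331 genes that rose (73.6%) and in 1041 of 1369 that fell (76.0%). Its median shift was 1.16 log2 among the rises, against 1.47 and 1.5 for replicates 1 and 2, and -0.69 among the falls, against -1.01 and -1.01. The mean shift over the medium spiny neuron list was -2.08, -1.93 and -1.21 in replicates 1 to 3, over p53 targets 1.43, 1.24 and 0.68, and over interferon-stimulated genes 5.14, 4.92 and 4.27. Over astrocyte marker genes it was 1.19, 1.29 and 1.11. In each of these 4 lists replicate 3 still lay beyond all 9-week mutants. All 3 mice were female, so sex does not separate them.

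**Figure D3:**
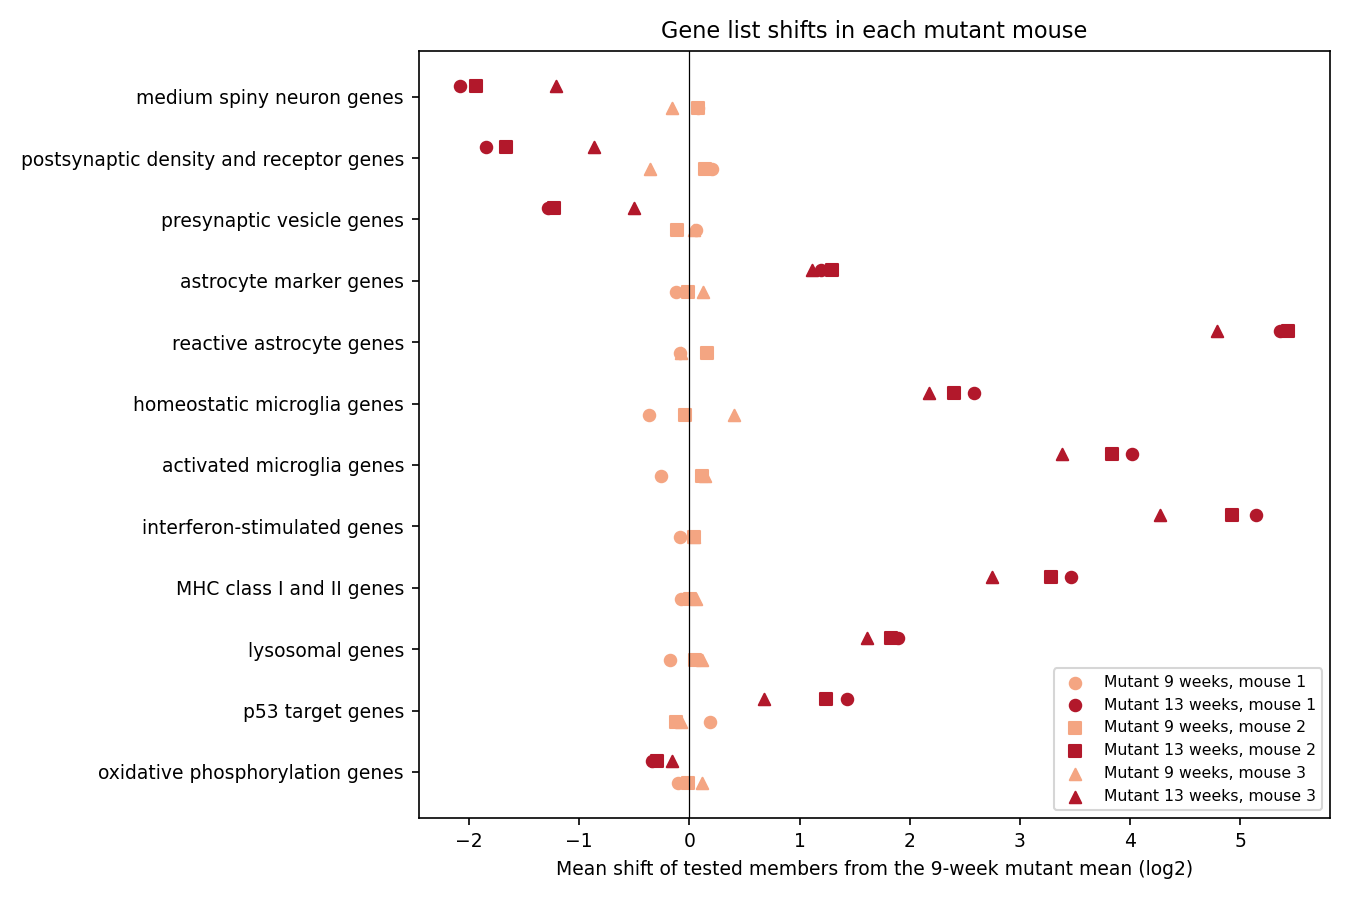
Mean shift of the tested members of 12 gene lists (rows) from the mean of the 9-week mutants (log2, x axis), with 1 marker shape for each replicate, pale for 9 weeks and dark for 13 weeks. Replicate 3 at 13 weeks (triangle) lies nearest to 0 of the 13-week mice in all 12 lists, at -1.21 for medium spiny neuron genes and 4.27 for interferon-stimulated genes.

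Control mice of the same ages gave the background of these differences. The 12 genes called there included the rises of Kif5c, a neuronal kinesin (1.51 ± 0.23 log2, SE, adjusted p = 0.0327), Cap1, an actin-binding protein gene (2.97), the deubiquitinase gene Otub1 (2.27), the splicing factor gene Rbfox2 (1.84) and Pfn1, encoding profilin (1.69). In the mutants Pfn1 rose too, from 7.32, 6.89 and 7.22 to 8.86, 8.85 and 9.04 (1.77 ± 0.21 log2, SE, adjusted p = 5.54e-05), and its age difference did not differ between genotypes by test (adjusted p = 0.868). Kif5c was at 8.09, 7.48 and 7.38 at 9 weeks and 7.18, 7.36 and 7.95 at 13 weeks in mutants and did not pass. Among the control falls were Lrrk2, a kinase gene expressed in striatum (-0.78), Usp48 (-0.87), Plekha6 (-0.96), Tmem268 (-1.06) and Car15 (-0.98). Lrrk2 was at 8.73, 8.76 and 8.64 at 9 weeks and 7.46, 7.41 and 7.61 at 13 weeks in mutants (-1.22 ± 0.13 log2, SE, adjusted p = 2.08e-05), and Usp48 (-0.58), Plekha6 (-0.61) and Tmem268 (-0.60) also fell there, Tmem268 in 9 of 12 fits that left out 1 array. No control gene passed without any 1 of the 3 controls at 9 weeks or without control replicate 1 at 13 weeks, 25 passed without control replicate 3 at 13 weeks, and with all arrays 1431 control genes (17.3%) had an unadjusted p under 0.05.

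**Figure D4:**
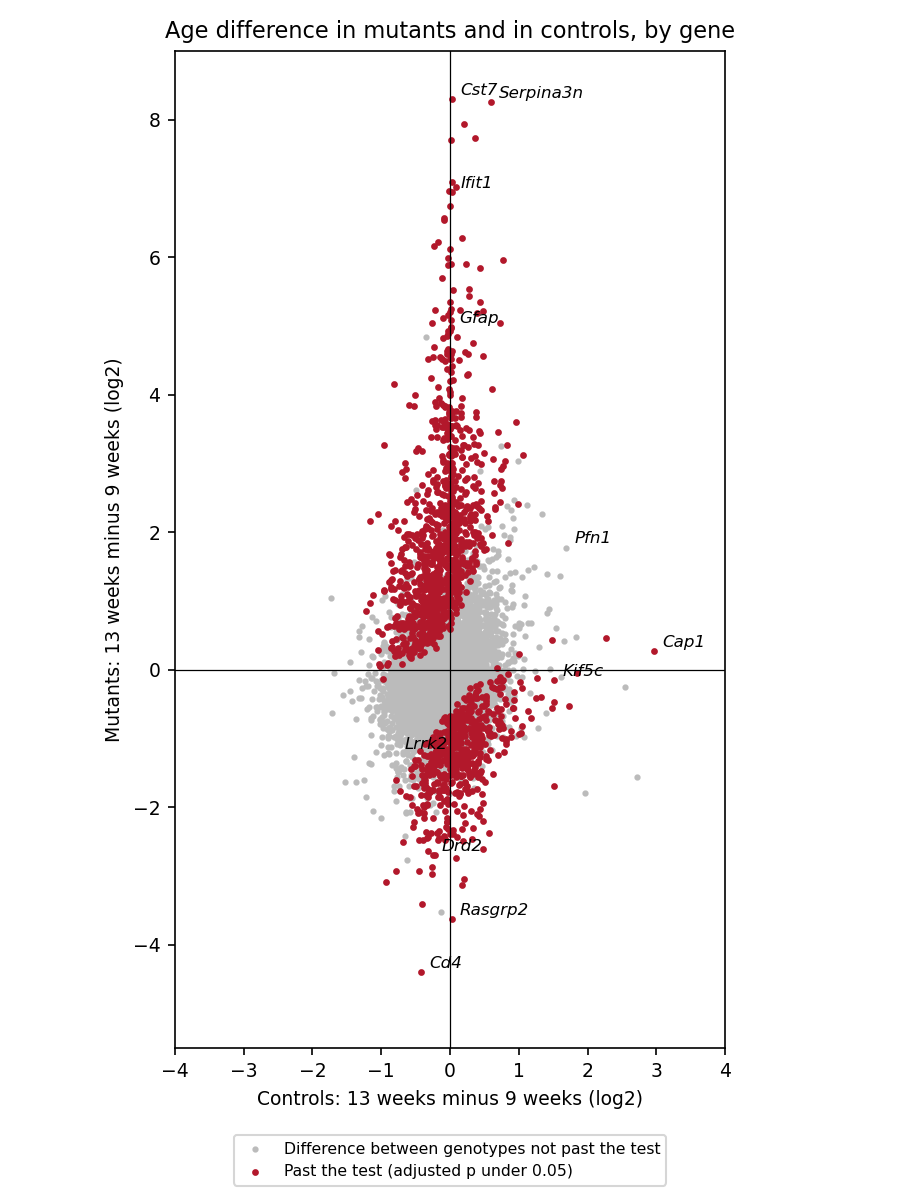
Difference between 13 and 9 weeks for each of 8256 genes (log2), in controls on the x axis and in mutants on the y axis, on equal scales. The 1523 genes whose age difference differed between genotypes are red, and they reach 8.30 (Cst7) and -4.40 (Cd4) in mutants while most of their control differences lie near 0.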

How the data were processed

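Striatal RNA of 12 mice was measured on Affymetrix arrays, 1 per mouse. The deposited values are log2 expression, processed by the authors with GCRMA per the submitters' processing notes. Its version and the genome build are not given in the sources used here. RNA was purified on QIAgen columns, per the labels' protocols. Values of the 22690 probe sets run from 1.09 to 15.48, with a median per array of 5.29 to 5.52. A single gene symbol was annotated for 20380 probe sets; 691 had more than 1, 1555 had none and 64 were array controls, and these were left out. No further normalization was applied. The probe set with the highest mean stood for each of 12393 genes. A gene was tested when at least 3 arrays had it above their own 40th percentile, which kept 8256 and removed 4137.

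The 4 groups were fitted together with limma 3.58.1 (R 4.3.3), using lmFit and eBayes with 8 residual degrees of freedom. P-values are two-sided and adjusted by Benjamini-Hochberg over the 8256 genes, with a threshold of 0.05. Each tests a difference between group means against the spread between mice within groups, pooled over all 4 groups. Differences are in log2 with limma's standard error (SE), 3 mice per group, and a fold is 2 to that power. The procedure was tested on simulated data.

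Named genes were the 12 largest rises and falls past the test, a panel of markers, up to 4 members of each list with the smallest p, and the 5 largest changes each way in controls. Other members, named because few of their list did or did not pass, were chosen after their values were seen. The comparison and the gene lists were chosen with earlier results of these data known. Sex was read from Xist and Y-linked genes. A fit to female mice was added after seeing the data. Promoters came from RefSeq windows (GRCm38.p6). Results were recomputed with arrays centred on their medians or quantile normalized, without a filter or with a 60th percentile filter, with probe sets averaged per gene, with a trended and robust prior, array weights, an adjusted p under 0.01, a term for sex or the replicate number as a block, on the compared groups alone, and without each array in turn.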

Additional observations from a re-analysis of the deposited data

Results flagged for a closer look

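The age difference in mutants was set against that in controls by a test of the difference itself, limma's interaction contrast with Benjamini-Hochberg adjustment, and 1523 genes passed. Values below are the mutant age difference minus the control age difference in log2.

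Among the largest rises it was 8.28 for Cst7, 7.66 for Serpina3n, 7.74 for A2m, 7.36 for Clec7a, 7.68 for Oasl2, 7.06 for Cxcl10, 6.94 for Lcn2, 6.97 for Ifi27l2a, 6.91 for Ifit1, 6.75 for Usp18, 6.65 for Bst2 and 6.62 for Osmr. The control differences of these genes lay near 0, with the highest for Serpina3n at 0.59. The genes were chosen by their rise in mutants, which is part of this contrast. Cst7, A2m, Clec7a, Oasl2, Lcn2, Ifit1, Usp18 and Osmr were also tested only through the 13-week mutants. For these, a control difference near 0 and a pass were largely set by the filter and are no support by themselves. Among the largest falls it was -3.98 for Cd4, -3.65 for Rasgrp2, -3.01 for Adra2c, -3.31 for Dmkn, -2.16 for Arg2, -3.24 for Chrm1, -2.72 for Ido1, -2.15 for Dazl, -2.49 for Hes5, -2.61 for Reep6 and -2.82 for Gabrd. Arg2 differed by -0.93 and Dazl by -0.78 in controls, in the same direction as in mutants, and neither control difference passed.

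In the panel of markers it was 4.97 for Gfap, 2.35 for Aif1, -2.45 for Drd2, -1.08 for Penk, -0.99 for Tac1, -2.16 for Ppp1r1b, 3.69 for Cdkn1a and -1.42 for Cartpt. Cartpt differed by -0.68 in mutants and by 0.74 in controls, and neither difference passed by itself.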

How the results depend on the processing

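None of the 147 named genes that passed changed sign in any setting run, while 6 of the 32 that did not pass did. Most named genes were chosen by a large difference or small p-value in the main fit. Their stability is partly set by that choice and does not describe all genes called. The split of the mutant calls turned from 1331 higher and 1369 lower to 1272 higher and 1240 lower with a term for sex, and the immediate early list went from 4 higher and 0 lower to 3 and 5 among female mice. The mutant comparison gave 5753 genes with array weights, whose estimation stopped before it converged, 1714 at an adjusted p under 0.01, and 1900 to 3837 when single arrays were left out; the highest was without control replicate 3 at 13 weeks. The difference between genotypes gave 4301 genes with array weights, 763 at the stricter threshold and 1071 to 1951 with single arrays left out. The control comparison gave 59 genes with no filter, 7 with the 60th percentile filter, 1926 with array weights, 0 at the stricter threshold, 3 with the replicate block, 0 in a fit to its own groups and 0 to 25 with single arrays left out. Rrn3 lost the threshold after median centring (0.42), at the stricter threshold (0.57), with a term for sex (0.47) and among female mice (0.59), and ranged from 0.46 to 0.73 with single arrays left out. Of 147 named genes that passed, 141 passed after median centring, 147 after quantile normalization, 135 with a term for sex and 113 among female mice. The count of calls stayed within 1.5 times for 33 of 40 gene lists after median centring, 32 with a term for sex, 29 among female mice and 39 after quantile normalization. With the replicate number as a block the mutant comparison gave 2800 genes and 145 of the named genes passed; same-numbered mutants of both ages had correlations of 0.067, 0.003 and 0.096 between their deviations, so the numbers name the mice and do not pair them. Probe sets near the low end of the scale limit what a fold can show.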

Other observations

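In some genes the mutants stood apart from controls at both ages. Ddit3 was at 10.20, 10.27 and 10.48 in mutants and 9.04, 9.06 and 9.09 in controls at 9 weeks, and at 10.29, 10.21 and 10.02 and 8.84, 9.12 and 9.64 at 13 weeks, so the mutants lay above the controls at both ages. Snhg5, too, lay above its controls at both, at 7.35, 7.13 and 7.23 in controls at 9 weeks and 7.52, 7.63 and 7.20 at 13 weeks. These values are descriptions of the group levels and were not tested here.

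The oxidative phosphorylation, ribosome biogenesis and ribosomal protein genes are the lists whose counts depended most on how arrays were scaled, with 5, 7 and 2 members past the test as deposited and 20, 15 and 0 after median centring. Their median differences as deposited were -0.25, -0.09 and -0.01, and the same centring moved the median over all genes from -0.10 to -0.26.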
